A study of Mus musculus with 9 samples.

Results

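The BH3-only proteins are the members of the BCL2 family that start cell death at mitochondria. The genes described here are Bbc3 (PUMA), Pmaip1 (NOXA), Bcl2l11 (BIM), Bid, Bad, Bmf, Bik and Bnip3l (NIX), 8 of the 16921 gene identifiers for which ribosome footprints were deposited. They were chosen by name, with earlier results of these data known. All 8 have a row in the table, and 7 of them passed a filter of a mean fitted value of at least 10 over the libraries, as did 10202 genes in all. Bmf did not pass and was not tested.

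Footprints were measured by RiboSeq, that is, sequencing of the messenger RNA fragments that ribosomes protect from nuclease. The cells were immortalized bone marrow-derived macrophages of mice that lack tristetraprolin (TTP, gene Zfp36), an RNA-binding protein that directs mRNAs with AU-rich elements to decay. They were transduced with a doxycycline-inducible retroviral vector for GFP, for GFP-TTP, or for GFP-TTP-AA, in which the serines that the kinase MK2 phosphorylates were changed to alanine. All groups carried the TTP deficiency, and all 9 libraries, 3 for each of the 3 groups, came from cells given doxycycline for 6 h and LPS for 1 h, both at 1 µg/ml. The groups therefore compare transgenes in 1 stimulated state, with no unstimulated cells. Each transgene was carried by its own transduced cell line, so effects of the transgene and of the line cannot be told apart. The sources used here do not say whether same-group libraries came from separate cultures, so the errors may describe technical spread alone.

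In living cells the BH3-only proteins are held back by survival proteins such as BCL2, BCL-XL and MCL1. When their amount or activity rises they occupy the groove of these proteins, and some of them also bind the effectors BAX and BAK directly, which then open the outer mitochondrial membrane and release cytochrome c. Their supply is set in different ways: Bbc3 and Pmaip1 are classical targets of p53, Bcl2l11 of FOXO factors, BID is cut by caspase-8, BAD is held by 14-3-3 proteins when phosphorylated, BMF and BIM bind dynein light chains, and NIX is mainly a receptor for the removal of mitochondria. In macrophages, LPS sets off survival and death signals side by side.

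The 3′UTRs of the genes were searched for the AU-rich pentamer that TTP is known to bind in its extended forms. In the longest annotated 3′UTR of each gene (GENCODE vM21, build GRCm38, given strand), Bcl2l11 had 6 ATTTA pentamers, Pmaip1 and Bnip3l had 4 each, Bad, Bmf and Bik had 1 each, and Bbc3 and Bid had 0. The longer TATTTAT, which contains the pentamer, was present 4 times in Pmaip1 and 2 times in Bcl2l11 and not in the other 6 genes. The nonamer TTATTTATT, which contains both, was in none of them. Among the kept genes with an annotated 3′UTR, 70.8% had an ATTTA, 30.7% a TATTTAT and 8.30% a TTATTTATT. Long 3′UTRs hold more motifs by their length: among genes whose 3′UTR was between 0.5 and 2 times as long as that of Bbc3 (971 nt), 73.8% had an ATTTA, and among those similar to Bid (1427 nt) 83.3% had one. The Bcl2l11 heptamers are shown, and those of Pmaip1 are not reported here. Such motifs are common at this 3′UTR length: 54.5% of genes with 3′UTRs of similar length to Bcl2l11 had a TATTTAT and 96.5% an ATTTA. They lie in the middle of the windows chr2:128161111-128161135 and chr2:128161345-128161369 of GRCm38, plus strand, in the 3′UTR, and capitals mark the heptamer.
Bcl2l11 site 1: tattttgacTATTTATtagattaga
Bcl2l11 site 2: gatgttgtaTATTTATtttccgctt

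The heptamer of site 1 begins at nucleotide 2791 after the stop codon, in a 3′UTR of 4218 nt. These matches are letters in the annotation. Whether TTP bound there was not analysed here.

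The deposited values are those that the authors' DESeq2 model fitted: the replicate pattern of a gene is the same in every condition by construction, and the libraries hold no spread of their own. A level below is a fitted value divided by the library's size factor, and a condition's level is the geometric mean of 3 libraries. Errors are standard errors (SE) from the authors' comparison tables, set beside fold changes computed here. The ratio was tested against a normal distribution (Wald test, two-sided) and adjusted by Benjamini-Hochberg over all kept genes with an SE. A gene is called below when its adjusted p was under 0.05. The authors' model shrank fold changes towards 0, so the folds are shrunken ones. The sum of fitted values ranged from 2570292 to 12804501 over the libraries, and size factors from 0.415 to 2.12. The reads themselves were not used here, so depth enters only through the SE. Zfp36 itself had levels of 459, 927 and 1535 in GFP, GFP-TTP and GFP-TTP-AA, higher in both transgene groups (adjusted p = 0.00480 and 2.24e-09 against GFP) and also higher in GFP-TTP-AA than in GFP-TTP (adjusted p = 0.0394). The GFP-TTP-AA comparison therefore differs in Zfp36 footprints as well as in the phosphorylation sites, and the effects of both cannot be told apart.

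GFP-TTP-AA cells had more footprints on Bbc3 than both other groups, and fewer on Pmaip1 than GFP cells. Bcl2l11 was higher in GFP-TTP-AA than in GFP-TTP, near the threshold. The scarce Bik was also called higher there, but it passed the filter only through its GFP-TTP-AA values. No BH3-only gene was called between GFP-TTP and GFP, and Bid, Bad and Bnip3l were called in no comparison. Against GFP, Bbc3 and Pmaip1 thus moved in opposite directions in GFP-TTP-AA.

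**Figure D1:**
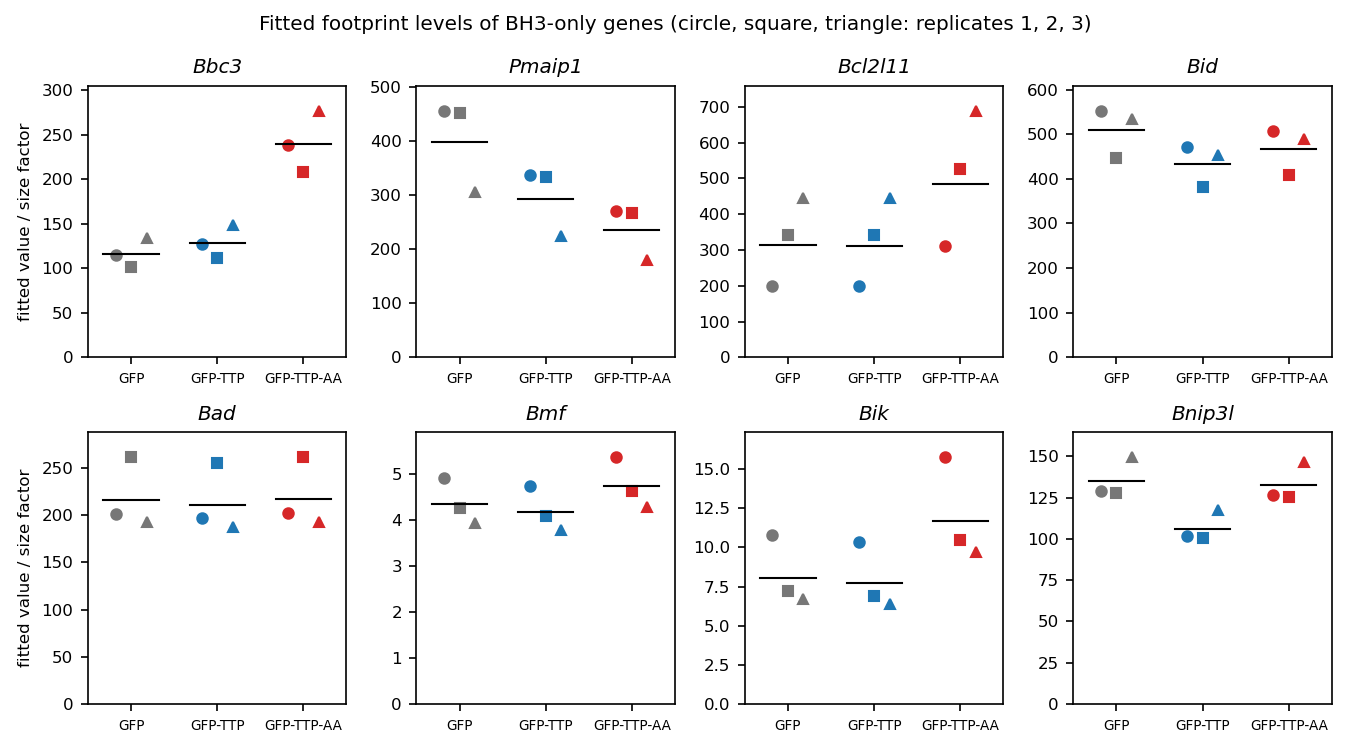
Fitted value divided by the library's size factor (y axis, from 0, a different scale in each panel) for the 8 BH3-only genes in each condition (x axis). Circles, squares and triangles are replicates 1, 2 and 3, and the black line is the geometric mean. All 3 GFP-TTP-AA libraries of Bbc3 lie above the other 6, while the replicate numbers of Bcl2l11 spread more than its conditions. The replicate pattern is fitted, so this does not show that libraries agree.

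Bbc3 (ENSMUSG00000002083, chr7:16308393-16318205) encodes PUMA, which binds every major survival protein of the family. Its levels were 115, 101 and 135 in the GFP libraries (replicates 1 to 3), 128, 112 and 149 in GFP-TTP and 238, 208 and 277 in GFP-TTP-AA. The GFP-TTP-AA values did not overlap with those of either other group, whereas GFP and GFP-TTP overlapped. As the replicate pattern is fitted, overlap here and below only compares the fitted effect of the condition with that of the replicate number, and does not show that libraries agree. The share of all genes whose groups do not overlap was not counted, so lack of overlap is given only as a description. GFP-TTP-AA was 2.06-fold higher than GFP, with a 95% interval of 1.57 to 2.71 (log2 fold change 1.04, SE 0.20, adjusted p = 4.64e-05). Among the 10202 genes tested, this log2 fold change ranked 40 from the top. Against GFP-TTP the fold was 1.86, with an interval of 1.42 to 2.45 (log2 0.90, SE 0.20, adjusted p = 0.000322). Between GFP-TTP and GFP the fold was 1.11, with an interval of 0.840 to 1.46 (adjusted p = 0.862). Bbc3 is thus high in cells with the mutant TTP form and not shown to differ between the other groups. Its longest annotated 3′UTR holds 0 of the pentamers searched, which does not show whether TTP binds this mRNA. The paper counts Bbc3, Pmaip1 and Bcl2l11 among the TTP targets of its iCLIP, which was not analysed here.

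Pmaip1 (ENSMUSG00000024521) encodes NOXA, which binds chiefly MCL1 and brings about its degradation. Its levels were 456, 452 and 306 in GFP, 337, 333 and 225 in GFP-TTP and 271, 267 and 181 in GFP-TTP-AA. The GFP and GFP-TTP-AA libraries did not overlap, and GFP-TTP lay between them and overlapped with both. GFP-TTP-AA had 0.592 of the GFP level, with an interval of 0.464 to 0.756 (log2 -0.76, SE 0.18, adjusted p = 0.00247). GFP-TTP had 0.737 of the GFP level (interval 0.578 to 0.939). This interval does not include 1, but the gene was not called (adjusted p = 0.244). GFP-TTP-AA against GFP-TTP was 0.804, with an interval of 0.629 to 1.03 (adjusted p = 0.296). The paper, in contrast, names Pmaip1 among the apoptosis genes with enhanced translation in TTP-AA against TTP macrophages. The fold computed here does not show this, and the reason for the difference was not tested. Pmaip1 is the member with the most TATTTAT heptamers, 4 in a 3′UTR of 2192 nt, where 42.2% of genes with 3′UTRs of similar length had at least 1.

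Bcl2l11 (ENSMUSG00000027381, chr2:128126038-128162547) encodes BIM, which binds all survival proteins and also activates BAX and BAK. Its levels were 200, 342 and 446 in GFP, 201, 341 and 444 in GFP-TTP and 311, 527 and 689 in GFP-TTP-AA. The 3 groups overlapped, because the replicate numbers differ by 2.22-fold (replicate 3 over replicate 1) and the conditions by at most 1.55-fold. Within each replicate number the GFP-TTP-AA value was the highest, which the fitted model fixes for all 3 together. GFP-TTP-AA was 1.55-fold higher than GFP-TTP, with an interval of 1.15 to 2.10 (log2 0.63, SE 0.22, adjusted p = 0.0454). This call is near the threshold and was lost when p-values were adjusted over the 3 comparisons together (adjusted p = 0.0745). Against GFP the same fold of 1.55 (interval 1.14 to 2.09) was not called (adjusted p = 0.0972). GFP-TTP and GFP differed by a log2 fold change of -0.0021, with an interval of -0.44 to 0.43, so a difference of up to 1.35-fold lies within the error.

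Bik (ENSMUSG00000016758, chr15:83526862-83544634), a BH3-only protein of the endoplasmic reticulum, was scarce, with fitted values that summed to 108 over all 9 libraries. Its levels were 10.8, 7.20 and 6.68 in GFP, 10.4, 6.90 and 6.39 in GFP-TTP and 15.8, 10.4 and 9.71 in GFP-TTP-AA. The groups overlapped. GFP-TTP-AA was 1.52-fold higher than GFP-TTP, with an interval of 1.16 to 1.99 (log2 0.60, SE 0.20, adjusted p = 0.0289). Against GFP it was 1.46-fold higher (adjusted p = 0.118), and no SE was available between GFP-TTP and GFP, so that comparison was not tested. Bik passed the filter on fitted values only through the group where it was high: its fitted values over 3 libraries summed to 51.6 in GFP-TTP-AA but to 29.5 with GFP-TTP and 26.8 with GFP alone, so that the mean was under 10 in both other groups. It did not pass the same filter of 10 on values divided by size factors, under which it was not tested. Its call is therefore given as a description and supports nothing. With a pseudocount of 10 on the levels its log2 fold change against GFP-TTP was 0.29 in place of 0.60.

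Bid (ENSMUSG00000004446, chr6:120891930-120916853), whose protein links death receptors to mitochondria, had the largest sum of fitted values of the members over all libraries (5055), although Bcl2l11 had the higher level in GFP-TTP-AA (484 against 466). Its levels ranged from 447 to 553 in GFP, 381 to 472 in GFP-TTP and 408 to 508 in GFP-TTP-AA, and all groups overlapped. The largest difference, GFP-TTP at 0.852 of GFP, had an interval of 0.696 to 1.04 (adjusted p = 0.596). Bid overlaps Bcl2l13 in the annotation, and how reads in the shared stretch were counted is not given.

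Bad (ENSMUSG00000024959, chr19:6941861-6951899) had nearly the same level in each condition: 216, 211 and 217 in GFP, GFP-TTP and GFP-TTP-AA. Its single libraries ran from 187 to 262, with replicate 2 the highest in each condition. The widest interval of the 3 comparisons allowed between 0.769 and 1.24 of the GFP level in GFP-TTP. The tested genes of chromosome 19, which holds Bad, were shifted upwards against GFP. Their medians were log2 0.18 for GFP-TTP (357 genes) and 0.11 for GFP-TTP-AA (364 genes). With these medians subtracted, Bad stood at log2 -0.21 and -0.10 and was not called (adjusted p = 0.777 and 0.907). For GFP-TTP-AA against GFP-TTP the chromosome median was -0.089, and Bad stood at 0.13 (adjusted p = 0.740). The cause of this shift was not tested. Bad overlaps Gpr137, which was higher in GFP-TTP than in GFP (log2 0.76, adjusted p = 0.0255) and lower in GFP-TTP-AA than in GFP-TTP (log2 -0.65, adjusted p = 0.0273). Whether shared reads enter the values of Bad was not tested.

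Bnip3l (ENSMUSG00000022051, chr14:66985239-67008877) had levels of 135, 106 and 133. Its fold in GFP-TTP against GFP was 0.786, with an interval of 0.576 to 1.07 (adjusted p = 0.614), and GFP-TTP-AA against GFP-TTP was 1.25, with an interval of 0.913 to 1.70 (adjusted p = 0.440). Differences of about this size were not detectable at this error. Reads that map to up to a pair of places were kept at mapping, and a Bnip3l pseudogene is annotated. How such reads were counted is not given, so the values of Bnip3l are uncertain to that extent. Bmf (ENSMUSG00000040093, chr2:118528757-118549687) had levels between 3.76 and 5.36 in single libraries and no SE in any comparison, and it gives no result.

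**Figure D2:**
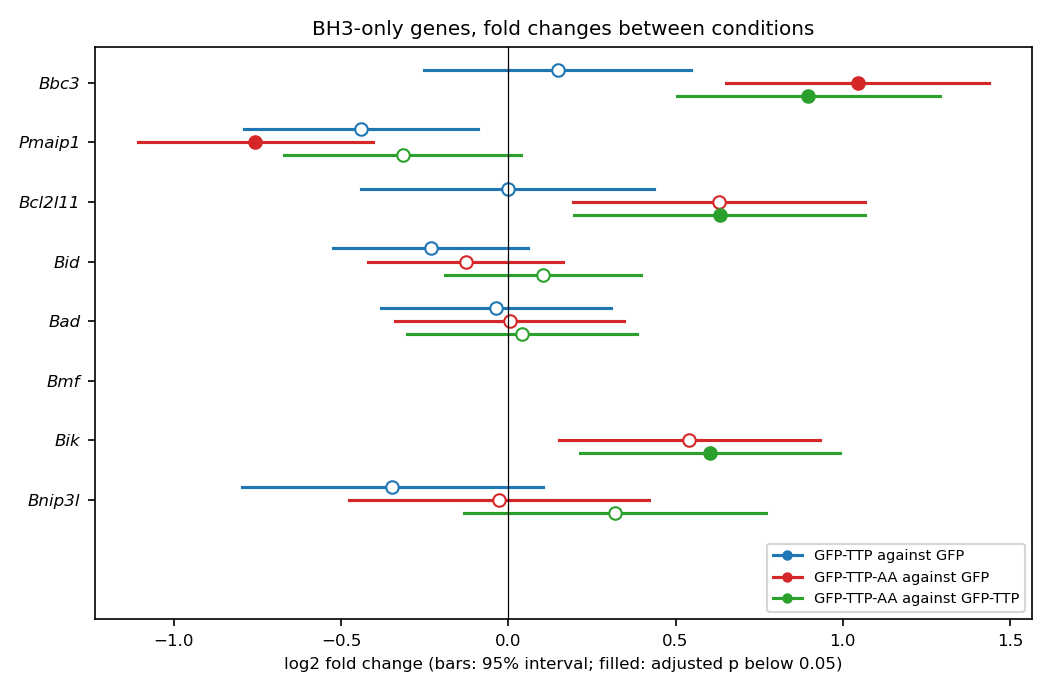
Log2 fold change (x axis) of each BH3-only gene (y axis) in the 3 comparisons, by colour, with 95% intervals as bars. Filled points passed an adjusted p of 0.05: Bbc3 in 2 comparisons, Pmaip1, Bcl2l11 and Bik in 1 each, and Bmf was not tested.

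Counted over the members, 0 of the 6 tested were called between GFP-TTP and GFP, against 2.1% of all genes tested, and 1 had an unadjusted p under 0.05. Between GFP-TTP-AA and GFP, 2 of 7 were called, 1 higher and 1 lower, against 3.02% of all genes (1.75% higher and 1.26% lower). Between GFP-TTP-AA and GFP-TTP, 3 of 7 were called, all higher, against 10.3% of all genes (5.64% higher and 4.63% lower). Among these is Bik, which entered the test through its GFP-TTP-AA values, and without it 2 genes were called. The median log2 fold change of the members tested was -0.13, 0.0040 and 0.32 in these comparisons, where that of all genes was 0.0034, 0.0052 and 0.0046. Under the filters that leave out Bik, the median was -0.012 for GFP-TTP-AA against GFP and 0.21 for GFP-TTP-AA against GFP-TTP. The comparisons share libraries in pairs, so the Bbc3 calls against GFP and against GFP-TTP rest on the same 3 GFP-TTP-AA libraries. The 8 genes were chosen by name with earlier results of these data known, and the paper had named Bbc3, Pmaip1 and Bcl2l11 as changed. These counts therefore describe the genes and are not a test of the family.

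Per kilobase of the longest annotated coding sequence, the order of levels changed. Pmaip1, with the shortest coding sequence (309 nt), was the highest in GFP at 1288 per kb and in GFP-TTP at 949, ahead of Bid (871 and 742). In GFP-TTP-AA the order at the top was Bcl2l11 (823 per kb), Bid (797) and Pmaip1 (762), which lie close together. Bbc3 had 201 per kb in GFP, below Bad (353) and Bnip3l (207), and 414 in GFP-TTP-AA, above both of them (354 and 203). Bik and Bmf were the lowest in all 3 conditions, with at most 26.0 per kb. Differences between neighbours in this order were not tested.

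The replicate number, which stands in for the library date in the authors' model, moved several of these genes as much as the transgenes. For 5 of the 8 genes (Bcl2l11, Bid, Bad, Bmf and Bik) the range between replicate numbers exceeded that between conditions, which was so for 53.4% of all kept genes. Bcl2l11 stood out, with a log2 range of 1.15 between replicate numbers, above that of 99.3% of kept genes. Several members went the other way, with replicate 3 at 0.617 of replicate 1 for Bik, 0.667 for Pmaip1, 0.798 for Bmf, 0.953 for Bad and 0.965 for Bid. Bbc3 was the member with the largest range between conditions, a log2 range of 1.04, above that of 98.3% of kept genes, against 0.41 between replicate numbers.

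**Figure D3:**
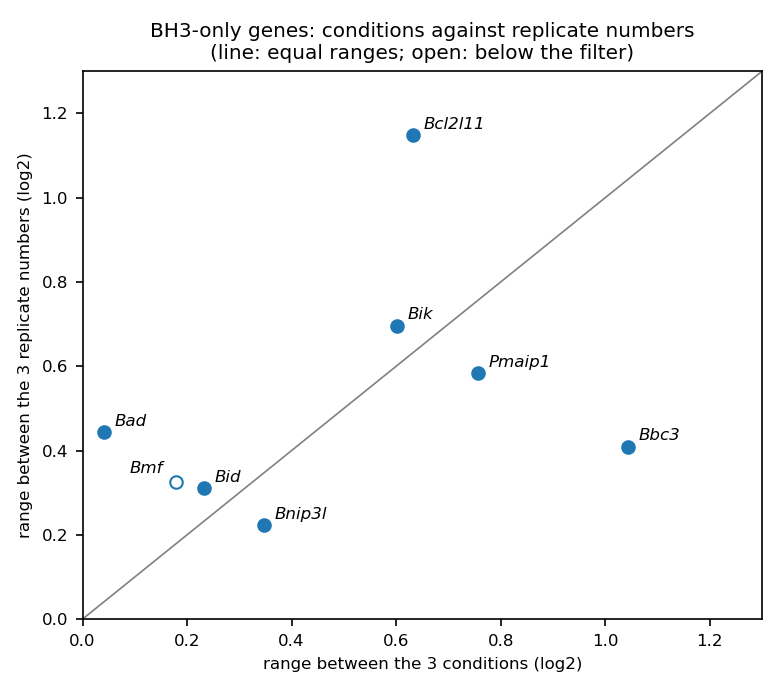
Range of log2 levels between the 3 replicate numbers (y axis) against the range between the 3 conditions (x axis) for each BH3-only gene, with equal ranges on the line. Bbc3, Pmaip1 and Bnip3l lie below the line, and Bcl2l11 lies highest at 1.15.

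The tested genes within 1 Mb of each called member were compared with it, to show whether a whole stretch of a chromosome differed between the cell lines. The 23 neighbours of Bbc3 had a median log2 fold change of 0.08 between GFP-TTP-AA and GFP, and 1 was called, C5ar1 (48.9 kb away, log2 0.63, adjusted p = 0.0362). C5ar1, a receptor for complement C5a, was also higher in GFP-TTP-AA than in GFP-TTP (log2 0.93, adjusted p = 6.48e-05), where the 23 neighbours had a median of 0.06 and 3 were called. The other 2 were Ap2s1, higher (log2 0.42, adjusted p = 0.0209), and Ptgir, lower (log2 -1.05, adjusted p = 6.47e-06). The 9 neighbours of Pmaip1 had a median of 0.0019 between GFP-TTP-AA and GFP, with none of them called and values from -0.23 to 0.14. The 21 neighbours of Bcl2l11 had a median of -0.13 between GFP-TTP-AA and GFP-TTP, opposite in sign to Bcl2l11, and 2 were called, Snrnp200 (log2 -0.41, adjusted p = 0.0227) and Bub1 (log2 -0.45, adjusted p = 0.0379), both lower. The 15 neighbours of Bik had a median of -0.01. For GFP-TTP-AA, the share called over all genes was 3.02% against GFP and 10.3% against GFP-TTP. The neighbours are few and their counts were not tested against these shares. The called neighbours therefore do not mark these stretches as unusual.

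**Figure D4:**
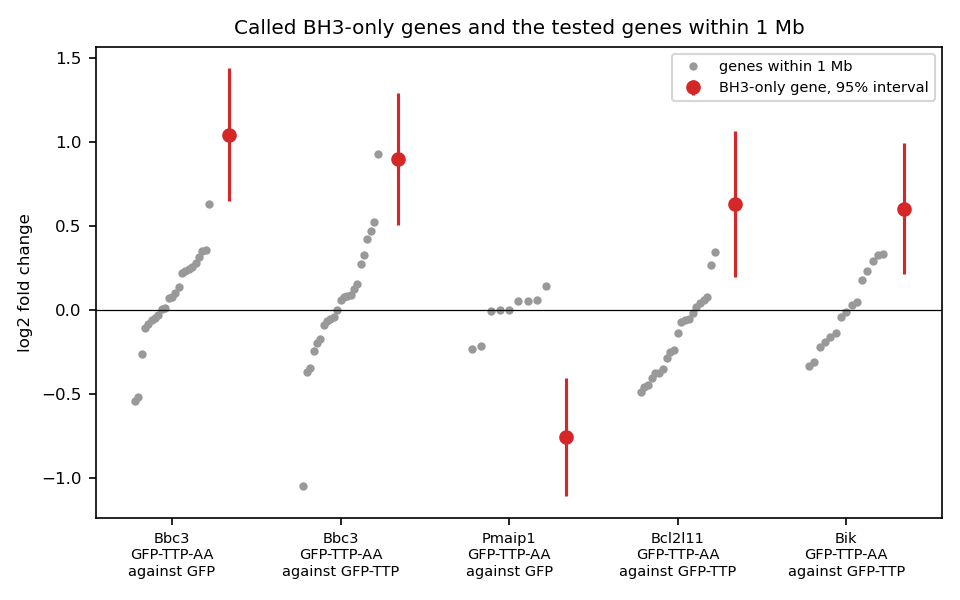
Log2 fold changes (y axis) of the called BH3-only genes (red, with 95% intervals) and of the tested genes within 1 Mb of each (grey, sorted by value), for 5 pairs of gene and comparison (x axis). Apart from C5ar1 beside Bbc3 at 0.93, the neighbours lie closer to 0 than the called gene or on its other side.

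The genes whose condition levels were most like those of the called members were sought among 8632 genes with a mean fitted value of at least 50, by the Euclidean distance of centred log2 levels over the 3 conditions. For Bbc3 these were Cd36 (149, 174 and 314 in GFP, GFP-TTP and GFP-TTP-AA; distance 0.056), Ifitm6 and Mgst1. For Pmaip1 they were Txnip (935, 706 and 571; distance 0.033), Tdrkh and Dusp1, the last of which encodes a MAP kinase phosphatase. For Bcl2l11 they were Cd300e (66.5, 65.1 and 102; distance 0.020), Il2rg and Ddit4. For Bik they were Arrdc4 (85.5, 82.7 and 124; distance 0.013), Hilpda and Slc6a8. With 3 points per gene many profiles are alike, and the order of these genes was not tested.

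Beside the members, 113 other genes of the death pathway and its control were listed, of which 104 were tested in each comparison. Of these, 3 were called between GFP-TTP and GFP (1 higher, 2 lower), 6 in GFP-TTP-AA against GFP (4 higher, 2 lower) and 11 in GFP-TTP-AA against GFP-TTP (8 higher, 3 lower). These are shares of 2.88%, 5.77% and 10.6%, near the background given above in the first and last comparisons. Among the proteins that BH3-only proteins bind, 1 of 4 survival genes and 1 of 2 effector genes were called in GFP-TTP-AA against GFP-TTP. Of all genes, 10.3% were called there, and these lists are too short to compare with that share. Bcl2l1, which encodes BCL-XL, was lower in GFP-TTP-AA (levels 563 and 391, log2 -0.53, SE 0.17, adjusted p = 0.0221). Bak1, which encodes the pore-forming BAK, was higher (levels 492 and 702, log2 0.51, SE 0.15, adjusted p = 0.0124). Mcl1, the main partner of NOXA, had levels of 3278, 2424 and 2818 and was called in no comparison, nor was Bax (1308, 1239 and 1250). Of the 5 tested BH3-only and BH3-like genes outside the members, among them Bnip3 and Becn1, 0 were called in any comparison (unadjusted p under 0.05 for 1, 0 and 1 of them in the 3 comparisons).

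Of 26 other p53 target genes, 5 were called in GFP-TTP-AA against GFP, 4 higher and 1 lower, which is 19.2% of them beside 3.02% of all genes. Fas, a death receptor, was higher by a log2 fold change of 0.82 (adjusted p = 0.00796), Trp53inp1 by 0.65 (adjusted p = 0.0491), Sesn2 by 0.57 (adjusted p = 0.0160) and Phlda3 by 0.49 (adjusted p = 0.0195). Sesn1 was lower by the log2 fold change of -0.73 (adjusted p = 0.0112). In GFP-TTP-AA against GFP-TTP, Fas, Trp53inp1, Sesn2 and Ei24 were higher and Xpc was lower, also 5 of 26 or 19.2%, beside 10.3% of all genes. Between GFP-TTP and GFP, Eda2r was higher and Sesn1 lower. Mdm2, the ubiquitin ligase of p53, and Cdkn1a, the cell cycle inhibitor p21, were called in no comparison. The median of the 26 was 0.01 between GFP-TTP-AA and GFP. Trp53 had levels of 1708, 1870 and 2025, and none of the 12 tested transcription factor genes that act on BH3-only genes was called in any comparison (unadjusted p under 0.05 for 0, 2 and 1).

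Of the 18 caspase and apoptosome genes, 1 was called in GFP-TTP against GFP and 1 in GFP-TTP-AA against GFP-TTP. Each is a share of 5.56%, beside 2.1% and 10.3% of all genes. Casp6 was lower in GFP-TTP than in GFP (log2 -0.66, adjusted p = 0.0437). Birc3, which encodes the inhibitor cIAP2, was higher in GFP-TTP-AA than in GFP-TTP (log2 0.80, adjusted p = 0.00240). Of 15 mitophagy genes, 1 (6.67%) was called in GFP-TTP-AA against GFP and 2 (13.3%) against GFP-TTP, beside 3.02% and 10.3% of all genes. Nbr1 was lower in GFP-TTP-AA than in GFP (log2 -0.70, adjusted p = 0.00435) and GFP-TTP (log2 -0.72, adjusted p = 0.000964). Ulk1, a kinase that starts autophagy, was higher in GFP-TTP-AA than in GFP-TTP (log2 0.57, adjusted p = 0.0386). Among the 24 tested direct partners and regulators, Ywhaq, a 14-3-3 gene, was higher in GFP-TTP-AA than in GFP-TTP (log2 0.42, adjusted p = 0.0332). This is a share of 4.17%, beside 10.3% of all genes. The others were not called: Casp8, which cuts BID, had levels of 683, 602 and 695, and Dynll1 and Dynll2, the dynein light chains bound by BIM and BMF, had 755, 801 and 857 and 1079, 975 and 1131. The 14-3-3 genes Ywhab, Ywhae, Ywhag, Ywhah and Ywhaz had log2 fold changes between -0.18 and 0.19 in the 3 comparisons.

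**Figure D5:**
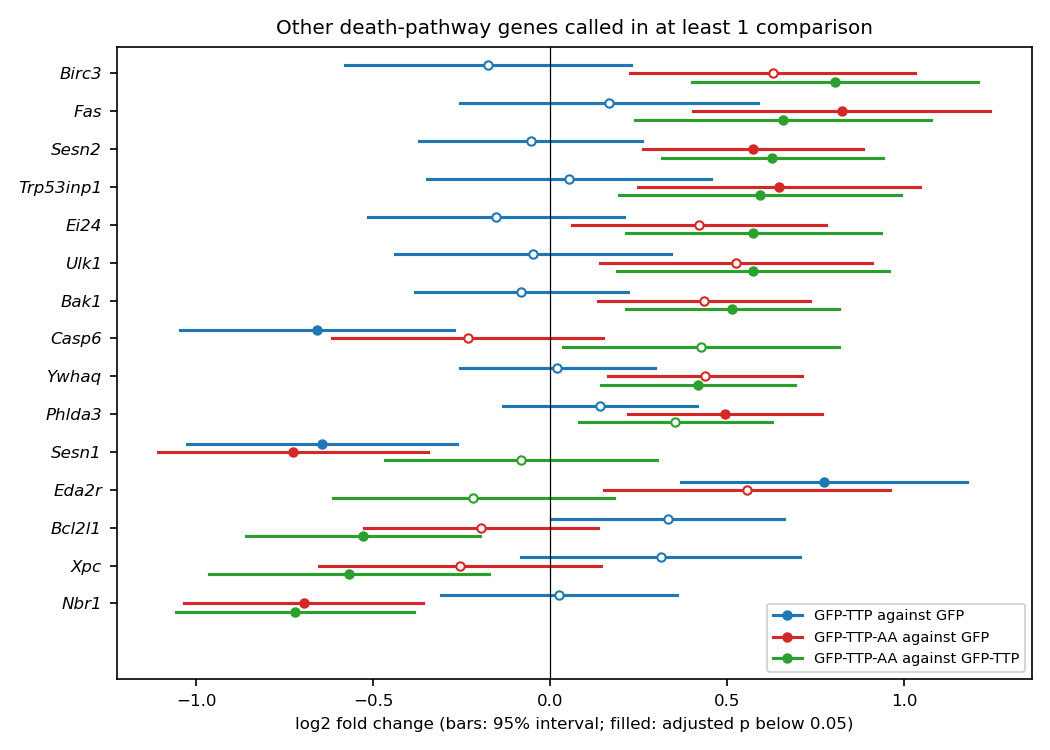
Log2 fold change (x axis) with 95% intervals of the 15 other death-pathway genes called in at least 1 comparison (y axis), by colour of comparison. Filled points passed an adjusted p of 0.05, and Birc3 to Nbr1 are sorted by GFP-TTP-AA against GFP-TTP, from 0.80 down to -0.72.

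Markers were read beside these results. Macrophage genes such as Lyz2, Cd68, Csf1r and Cd14 were abundant in every condition. Fcgr1 was lower, with levels of 129, 67.2 and 110, and Mertk, at most 5.44, did not pass the filter. Of the 9 tested, 3 were lower in GFP-TTP than in GFP, Emr1, Fcgr1 and Lyz2 (33.3%, beside 2.1% of all genes). In GFP-TTP-AA these 3 and Spi1, 4 of 9, were higher than in GFP-TTP (44.4%, beside 10.3% of all genes), and Emr1 was higher than in GFP (log2 0.54, adjusted p = 0.0290). The summed level of the 10 macrophage genes with a row ranged over the libraries from 91444 to 109435 in GFP, 72892 to 86271 in GFP-TTP and 103145 to 124408 in GFP-TTP-AA. Lyz2 made up most of these sums, with levels of 64036, 46032 and 71365. S100a8, the 1 of 4 listed neutrophil markers with a row, was higher in GFP-TTP-AA, as Bbc3 was: its single libraries ranged from 21.2 to 39.6 in GFP, 20.1 to 37.7 in GFP-TTP and 43.8 to 82.3 in GFP-TTP-AA (log2 1.05 against GFP, adjusted p = 0.00235, and 1.12 against GFP-TTP, adjusted p = 0.000247). The markers of T cells, B cells, dendritic cells, fibroblasts and epithelial cells had levels of at most 7.55, most of them under 1. The part of a shift in the state or mix of the cells in the results for Bbc3, Pmaip1, Bcl2l11 and Bik was not tested, and fewer cells with a footprint and fewer footprints per cell cannot be told apart. Footprints also follow both the amount of mRNA and its translation, which were not separated here.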

How the data were processed

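RiboSeq was analysed in 9 libraries, grouped by the sample labels. The authors mapped reads with TopHat to mm10, kept up to a pair of alignments per read, counted them per gene (HTSeq is named in the processing notes) and fitted DESeq2 1.6.3 with library date and condition as terms. The submitters' processing notes name Trim Galore and TopHat2 2.0.12. The parameters of counting are not given in the sources used here.

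The table that the authors deposited as normalized counts holds fitted values of that model (unit: signal): after terms for gene, condition, replicate number and library, the largest SD left over genes was 1.71e-15, and there were 0 zeros. As no dates were given, replicate numbers stand for them. From the comparison tables, the standard error of the log2 fold change, deposited by the authors on the log2 scale, was the 1 column used; the authors' fold changes, statistics and p-values they also hold were not used for results. Limma, which had been planned for values with replicate spread, could not be fitted.

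Size factors were medians of ratios over kept genes (fitted mean of at least 10). That gene set was chosen after comparing several choices with the fold changes deposited by the authors, whose adjusted p-values for the 8 genes had also been seen, and all genes were tried as an alternative. Levels, log2 fold changes, Wald tests and Benjamini-Hochberg adjustment used Python 3.11.15, NumPy 2.4.6, SciPy 1.17.1 and pandas 2.3.3, and were tested on simulated data. 3′UTRs came from GENCODE vM21, the longest per gene, and 16836 of 16921 identifiers had a position. Of the 16932 lines, 11 were repeats and were counted once.

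All 8 genes are named; of each context list, genes called in at least 1 comparison, by the size of the Wald ratio, and the direct partners. The genes and lists were chosen with earlier results of these data known. RNASeq and iCLIP were not analysed here.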

Additional observations from a re-analysis of the deposited data

How the results depend on the processing

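The counts of BH3-only genes called stayed within 1.5 times of those given under the alternatives: no filter, a fitted mean of at least 50, centring on the median of all kept genes or of the same chromosome, adjustment over the 3 comparisons together and, both chosen after seeing the data, size factors from all genes and a filter on values divided by size factors. Bbc3 was called in both GFP-TTP-AA comparisons under each (highest adjusted p 0.000601), as was Pmaip1 against GFP (highest adjusted p 0.00322). Bcl2l11 against GFP-TTP ranged from an adjusted p of 0.0263 to 0.0745 and was lost in the joint adjustment. Bik could not be tested at a fitted mean of 50 or under the filter on scaled values, which left 2 called genes in place of 3 and moved the median of the members from 0.32 to 0.21 in GFP-TTP-AA against GFP-TTP and from 0.0040 to -0.012 in GFP-TTP-AA against GFP. That median against GFP was also below 0 after centring (-0.0012) and with size factors from all genes (-0.0045). The log2 fold changes of Bik with a pseudocount of 10 were 0.27 and 0.29. Values near 0 changed sign: Bad in GFP-TTP-AA against GFP was -0.0012 after centring, -0.10 after subtracting the chromosome median and -0.0045 with size factors from all genes, and Bnip3l was 0.0033 after subtracting the chromosome median. Of the other death-pathway genes, 1 in place of 3 was called between GFP-TTP and GFP after subtracting the chromosome median, and 7 in place of 11 between GFP-TTP-AA and GFP-TTP with joint adjustment; the cause was not tested. No paired analysis was possible because the values are fitted and hold no replicate spread, and for the same reason the planned fits without 1 library and with limma were not run. Reads were not used here, so depth bears on these results through the standard errors and the filter, and Bmf had no standard error.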
